A study of Mus musculus with 4 samples.

Results

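Interferon-stimulated genes were followed across 3 mouse leukemias and 1 normal bone marrow. The set was a list of 39 genes chosen by name, and a gene was measured where a probe set was annotated to it alone. That held for 37 genes with 60 probe sets, among 18193 genes on the array. Ifi44 and Isg15 had no such probe set and were not analysed here. Of the 37 measured genes, 36 exceeded the floor, the median of all signals (189), on at least 1 array and were tested with 14012 genes in all. The exception was Mx2, with signals between 31.3 and 145. No member passed the floor through a single array, since 31 lay above it on all 4 arrays, 3 on 3 and 2 on 2.

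RNA from each sample was hybridised to 1 Affymetrix mouse array, and each group held 1 array, so no single comparison of arrays has a replicate error. Mixed lineage leukemia arose from hematopoietic stem and precursor cells transduced with AF4-MLL and with MLL-AF4, the reciprocal fusions of the histone methyltransferase MLL and the elongation factor AF4. An acute lymphoblastic leukemia of proB type (proB ALL) and a leukemia with both B and T features (biphenotypic, B/T BAL) arose from such cells transduced with AF4-MLL alone. The control was normal bone marrow, and the series title gives the strain as C57BL6. Leukemic cells were taken from the marrow of moribund mice and typed by flow cytometry without sorting, so every array can hold resident marrow cells. Vector, age and the number of animals behind each array were not stated in the sources used here.

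Interferons are secreted proteins that warn cells of viruses and of foreign or misplaced nucleic acid. Type I interferons bind the receptor of Ifnar1 and Ifnar2, the kinases Jak1 and Tyk2 then activate Stat2, which joins Irf9 in a complex that binds interferon-stimulated response elements in the promoters of target genes. Interferon gamma signals through Ifngr1 and Ifngr2, acts at gamma-activated sites and induces Irf1 among other genes. The products block viral entry, translation and replication.

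Markers of B cells were low on the arrays labelled for B-lineage leukemia. The summed signal of 9 B-cell genes was 39061 in normal marrow and 8976, 5044 and 1861 on the mixed lineage, proB ALL and B/T BAL arrays. Vpreb1 and Igll1, which stand in for a light chain in early B cells, had 11111 and 4111 in normal marrow and 30.1 and 64.6 on the array labelled proB ALL. All 8 B-cell genes tested were at least 2-fold lower there, but 3 of them, Ebf1, Vpreb1 and Igll1, passed the floor through normal marrow alone and so had to be lower. Pax5 was at or below the floor on all 4 arrays, normal marrow included, and so does not bear on the label. The summed signal of 9 natural killer and cytotoxic genes was 202493 on that array against 12987 in normal marrow, and all 9 were at least 2-fold higher, of which Gzmb passed the floor through that array alone. Gzma and Gzmk, granzymes of killer cells, had 54327 and 22047 there against 1556 and 219 in normal marrow. On the B/T BAL array Gzma was nearly as high, at 52157, while Gzmk had 168, below the floor. The array labelled B/T BAL had all 9 T-cell genes above normal marrow by at least 2-fold, with Cd4 and Ptcra past the floor on that array alone, and the 8 tested B-cell genes lower by as much, with the same 3 past the floor through normal marrow alone. Thy1 and Cd3d, T-cell surface proteins, had 54065 and 43500 there against 995 and 1002 in normal marrow. The share of probe sets above the floor was 57.4% on the mixed lineage array and 46.3% to 49.0% on the others, and Actb, whose 3' over 5' probe ratio grows as RNA degrades, gave 1.87 in normal marrow, 2.47 in proB ALL, 3.10 on the mixed lineage array and 4.72 in B/T BAL. The same ratio for Gapdh was 0.94 in normal marrow, 1.14 in B/T BAL, 1.24 on the mixed lineage array and 1.28 in proB ALL. In such bulk samples, fewer cells of a type and less RNA per cell cannot be told apart.

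The response elements themselves could be read in the promoters. RefSeq promoters (build GRCm38.p6, 250 bases before to 50 after a gene's start) were matched by symbol for 29 of the 39 genes. The core of the element was searched on either strand as the letters GAAA, then 2 bases of any kind, then GAAA. It lay in at least 1 promoter of 14 of these 29 genes, 48.3%, against 3.44% of all 32851 promoters and 3.99% of the 27025 genes they belong to. The gamma-activated site was searched as TTCNNNGAA, which reads the same on both strands. It was found in 7 of the 29 genes and in 9.55% of all genes. Of the genes with the core, Rsad2, Ifit1 and Oas3 had the lowest mean difference of the leukemias from normal marrow, and their 250 bases before the start are shown 5' to 3' with the core in capitals. Irf1 is set beside them because its promoter held no core but a gamma-activated site, which is in capitals. The windows are chr12:26456453-26456702 on the minus strand for Rsad2, chr19:34640639-34640888 on the plus strand for Ifit1, chr5:120777660-120777909 on the minus strand for Oas3 and chr11:53769764-53770013 on the plus strand for Irf1.
Rsad2: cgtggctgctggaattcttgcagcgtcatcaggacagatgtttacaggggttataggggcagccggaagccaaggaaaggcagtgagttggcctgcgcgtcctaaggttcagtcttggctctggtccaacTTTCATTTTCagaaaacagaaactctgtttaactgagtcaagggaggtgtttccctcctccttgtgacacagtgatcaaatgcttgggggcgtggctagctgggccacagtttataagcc
Ifit1: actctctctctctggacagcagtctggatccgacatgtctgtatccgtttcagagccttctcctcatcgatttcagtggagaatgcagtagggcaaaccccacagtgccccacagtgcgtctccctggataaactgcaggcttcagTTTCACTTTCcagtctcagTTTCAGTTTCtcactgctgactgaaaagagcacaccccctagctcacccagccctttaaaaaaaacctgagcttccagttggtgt
Oas3: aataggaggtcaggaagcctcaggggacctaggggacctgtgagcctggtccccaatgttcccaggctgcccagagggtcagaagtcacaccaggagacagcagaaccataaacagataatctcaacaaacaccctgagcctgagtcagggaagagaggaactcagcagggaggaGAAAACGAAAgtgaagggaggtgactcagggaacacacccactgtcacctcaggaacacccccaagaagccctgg
Irf1: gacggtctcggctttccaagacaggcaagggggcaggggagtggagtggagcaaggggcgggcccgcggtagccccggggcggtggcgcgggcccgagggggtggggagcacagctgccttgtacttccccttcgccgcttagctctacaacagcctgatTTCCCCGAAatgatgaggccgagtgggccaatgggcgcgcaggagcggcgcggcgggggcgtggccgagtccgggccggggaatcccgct
Counted from the start, the core began at base -120 in Rsad2, at -104 and -85 in Ifit1 and at -75 in Oas3, and the site of Irf1 began at -90. Among tested members with a matched promoter, those with and without the core had similar counts of lower genes. The part of the core in the members' levels was not tested. On the B/T BAL array 10 of 13 tested members with the core and 11 of 14 without it were at least 2-fold lower than in normal marrow, with median log2 differences of -1.55 and -1.52. On the mixed lineage array 5 of 13 and 7 of 14 were lower, and in proB ALL 3 of 13 and 3 of 14. Over all genes tested, 17.7% were lower in B/T BAL, 15.2% on the mixed lineage array and 18.7% in proB ALL. The proB ALL counts are thus close to the share over all genes.

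Signals were compared on a log2 scale after adding 51.4, the 25th percentile of all signals, which understates the change of dim genes. At least 2-fold on that scale, 14 of 36 members were lower on the mixed lineage array than in normal marrow and 0 were higher, against 15.2% and 18.8% of all genes tested. In proB ALL 8 were lower and 3 higher, against 18.7% and 11.3% of all genes. In B/T BAL 26 were lower and 0 higher, against 17.7% and 15.4%. The members' median log2 differences were -0.77, -0.17 and -1.56 on the mixed lineage, proB ALL and B/T BAL arrays, where all genes had 0.08, -0.11 and 0.05. The share of lower members was therefore more than the share over all genes on the mixed lineage array (38.9%) and B/T BAL (72.2%) and close to it in proB ALL (22.2%). B/T BAL, with the most lower members, had the highest Actb ratio, 4.72, but the lowest Gapdh ratio of the leukemias, 1.14. The part of RNA quality in the result was not tested. The 3 comparisons share the normal array.

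**Figure D1:**
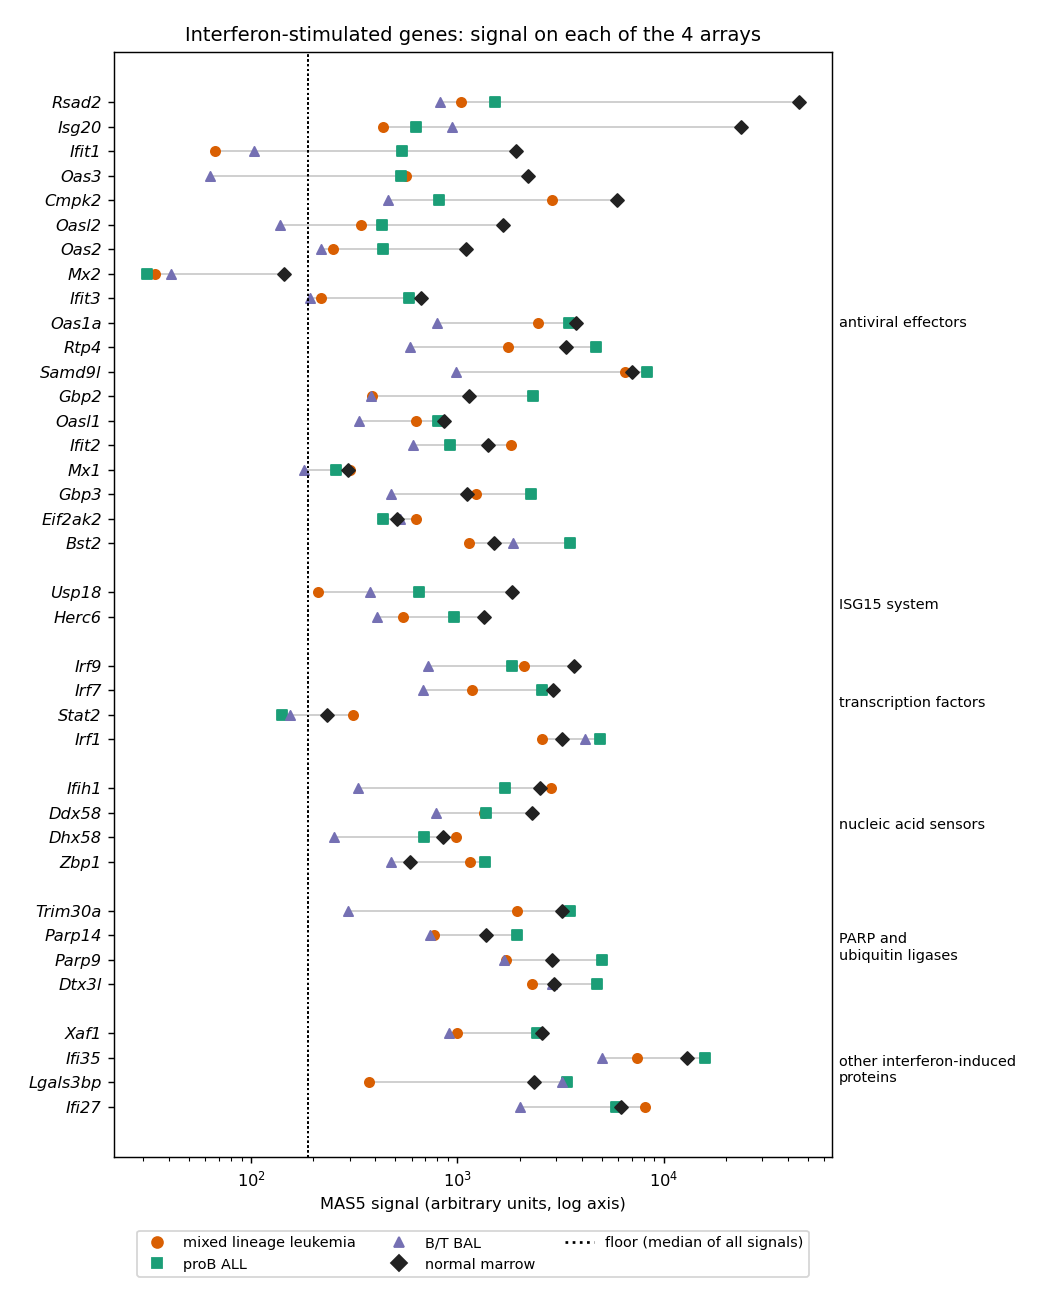
MAS5 signal (log axis) of the 37 measured interferon-stimulated genes, 1 row a gene, on the mixed lineage (circle), proB ALL (square), B/T BAL (triangle) and normal marrow (diamond) arrays, grouped by role and ordered within a group by the mean difference. Normal marrow lies far to the right of the leukemias for Rsad2 and Isg20, and B/T BAL is the lowest of the 4 arrays for 27 of the 36 genes tested.

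Across all 3 leukemias against normal marrow, 8 members were at least 2-fold lower on every leukemia array, against 4.45% of all genes tested. No member was at least 2-fold higher on all 3, where 1.31% of all genes were. The lower members were Rsad2, Isg20, Ifit1, Oas2, Oas3, Oasl2, Cmpk2 and Usp18, which were also the only members at least 2-fold lower in proB ALL. Without the proB ALL array, 13 members were at least 2-fold lower on both remaining arrays, against 5.53% of all genes. In limma, fitted over all genes with the 3 leukemias against the normal array, 0 members passed an adjusted p of 0.05 and 7 were lower at an unadjusted p under 0.05, against 0% and 2.63% of all genes. At an unadjusted p under 0.05, 0 members were higher, against 0.314% of all genes. The spread in that fit is between leukemias of different immunophenotype, and it stands in for the unknown spread of normal marrow.

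Rsad2 (viperin), which makes a chain-terminating nucleotide against viral polymerases, had the lowest mean difference of all members. Its signal was 45401 in normal marrow and 1038, 1527 and 820 on the mixed lineage, proB ALL and B/T BAL arrays. By this probe set, the brightest, the signal in normal marrow was 29.7-fold above the highest leukemia, and the 3 leukemias lay within a narrow range. Its mean log2 difference was -5.31 with a standard error of 0.69 (limma, adjusted p = 0.0702). Both other probe sets of Rsad2 also had normal marrow far above the leukemias, with 26429 and 11266 in normal marrow and at most 476 and 565 in a leukemia. By the last of them the leukemias spread more, with 565, 110 and 199 on the mixed lineage, proB ALL and B/T BAL arrays. With robust eBayes the adjusted p of Rsad2 was 0.0344, and it was 0.276 when only genes above the 75th percentile of signals on some array were tested.

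Isg20, an exonuclease that degrades viral RNA, had 23752 in normal marrow against 435, 630 and 943 on the mixed lineage, proB ALL and B/T BAL arrays. It was the 1 member for which B/T BAL was the highest of the leukemias. Its mean log2 difference was -5.11 with a standard error of 0.74 (limma, adjusted p = 0.11). That adjusted p was 0.047 with robust eBayes. Red cell precursor genes also had normal marrow far above every leukemia. The summed signal of 9 erythroid genes was 209480 in normal marrow and 9200, 13246 and 17735 on the mixed lineage, proB ALL and B/T BAL arrays. All 8 erythroid genes tested were at least 2-fold lower in each leukemia, and 4, 6 and 4 of the 9 were at or below the floor there, among them, on the proB ALL and B/T BAL arrays, the erythroid factor Klf1, which was chosen after its values were seen. Alas2, which starts heme synthesis in red cells, had 39547 in normal marrow and 183 to 467 in the leukemias, and Ermap, a red cell membrane protein, 25953 against 80.8 to 296. Macrophage genes, at 48445 against 20132, 18563 and 9442, and B-cell genes were lower as well, and the part of these cells in the result was not tested.

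Cmpk2, a mitochondrial nucleotide kinase, lies next to Rsad2 in the RefSeq gene order and had a smaller difference. Its signal was 5920 in normal marrow, 2866 on the mixed lineage array, 816 in proB ALL and 460 on the B/T BAL array. It was highest among the leukemias on the mixed lineage array, as was 1 of the 3 probe sets of Rsad2, though not the brightest. There, by the brightest probe sets, the log2 difference from normal marrow was -1.03 against -5.38 for Rsad2.

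The Ifit proteins bind viral RNA that lacks the cap marks of the host. Ifit1 had 1914 in normal marrow, 538 in proB ALL, 67.0 on the mixed lineage array and 104 in B/T BAL. The last pair lay below the floor, so Ifit1 was at least 10.2-fold lower on each of those arrays and 3.56-fold lower in proB ALL. Ifit3, whose near-identical copy Ifit3b had no probe set of its own, had 662 in normal marrow, 582 in proB ALL, 217 on the mixed lineage array and 192 in B/T BAL. Ifit2, the neighbour of Ifit3, had a different order, with 1813 on the mixed lineage array, 1408 in normal marrow, 921 in proB ALL and 611 on the B/T BAL array. For Ifit1 and Ifit3 proB ALL was thus nearest to normal marrow, whereas for Ifit2 the mixed lineage array was the highest of all.

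The Oas enzymes make the short adenylate chains that switch on an RNA-cutting enzyme when double-stranded RNA is present. Oas3 had 2196 in normal marrow, 561 on the mixed lineage array, 532 in proB ALL and 63.2 on the B/T BAL array, at least 11.6-fold lower on the last array. Oas2, its neighbour on the chromosome, had 1103 in normal marrow, 250 on the mixed lineage array, 435 in proB ALL and 217 on the B/T BAL array. Oas1a had 3734 in normal marrow and was nearly as high in proB ALL, at 3481, against 2466 on the mixed lineage array and 798 in B/T BAL. All 3 genes were lowest in B/T BAL, while proB ALL ranged from near the normal level for Oas1a to 4.13-fold lower for Oas3. Oasl2, an Oas-like protein, had 1654 in normal marrow, 341 on the mixed lineage array, 429 in proB ALL and 137 on the B/T BAL array. Its neighbour Oasl1, known as a brake on Irf7 translation, differed less, with 860 in normal marrow, 631 on the mixed lineage array, 808 in proB ALL and 333 on the B/T BAL array. Members of the Oas family share sequence, and how far their probe sets cross-hybridise was not tested.

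Other antiviral effectors did not share the low level of Rsad2 in all leukemias. Samd9l, a growth-restraining antiviral factor, had 7031 in normal marrow, 6502 on the mixed lineage array and 8252 in proB ALL, but 979 in B/T BAL, where it was 7.18-fold lower. Rtp4, a chaperone of membrane receptors that is induced by interferon, had 3342 in normal marrow, 1758 on the mixed lineage array, 4682 in proB ALL and 590 on the B/T BAL array. Its other probe set had 298, 234, 19.8 and 18.2 on the mixed lineage, proB ALL, B/T BAL and control marrow arrays, so the direction of Rtp4 on the mixed lineage array depends on the probe set. The guanylate-binding proteins, GTPases that attack the membranes around intracellular pathogens, had proB ALL as their highest array. Gbp2 had 2323 in proB ALL against 1136 in normal marrow, 385 on the mixed lineage array and 382 in B/T BAL. Gbp3 had 2262 in proB ALL, 1115 in normal marrow, 1235 on the mixed lineage array and 478 in B/T BAL. Both were near the 2-fold line in proB ALL, with log2 differences of 1.0 and 0.99. Bst2 (tetherin), which holds budding virus on the cell surface, also peaked in proB ALL, with 3505 against 1504 in normal marrow, 1849 in B/T BAL and 1137 on the mixed lineage array.

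Mx1 and Eif2ak2 stayed within 2-fold of normal marrow on each leukemia array. Mx1, a GTPase against influenza virus that is defective in C57BL/6 mice, had 301, 257, 180 and 295 on the mixed lineage, proB ALL, B/T BAL and control marrow arrays. Eif2ak2, the kinase PKR that stops translation when it meets double-stranded RNA, had 626, 434, 524 and 508. Another probe set of Eif2ak2 spread more widely, with 731, 254, 299 and 430 on the same arrays. Mx2 had 145 in normal marrow against 31.3 to 40.8 in the leukemias, all below the floor, so no fold is given.

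Isg15 is a ubiquitin-like protein that is attached to others and removed again, and Usp18 is the protease that removes it and also blocks the type I receptor. Usp18 had 1844 in normal marrow, 211 on the mixed lineage array, 651 in proB ALL and 377 on the B/T BAL array. Every leukemia lay at least 2.83-fold below normal marrow, and the mixed lineage array was 8.75-fold lower. Herc6, the main ligase for Isg15 in the mouse, had 1345 in normal marrow, 958 in proB ALL, 548 on the mixed lineage array and 409 in B/T BAL. Another probe set of Herc6 had 531 on the mixed lineage array against 272 in normal marrow, a log2 difference of 0.85 in place of -1.22.

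Among the transcription factors, Irf7 and Irf9 were highest in normal marrow and lowest in B/T BAL, and Irf1 was neither. Irf7, which raises interferon production further, had 2897 in normal marrow, 2567 in proB ALL, 1178 on the mixed lineage array and 678 in B/T BAL. Irf9, the DNA-binding part of the type I complex, had 3665 in normal marrow, 2107 on the mixed lineage array, 1834 in proB ALL and 718 on the B/T BAL array. In B/T BAL they were 4.27-fold and 5.10-fold below normal marrow. Irf1 had 4929 in proB ALL, 4141 in B/T BAL, 3229 in normal marrow and 2562 on the mixed lineage array. It stayed within 2-fold of normal marrow on each leukemia array. Stat2 had 310 on the mixed lineage array, 232 in normal marrow, 155 in B/T BAL and 142 in proB ALL by its brighter probe set. By the other probe set normal marrow was the highest, at 393, against 33.6 on the mixed lineage array, 131 in proB ALL and 240 on the B/T BAL array, so the order of Stat2 is unsettled.

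Of 4 nucleic acid sensors, 3 were at least 2-fold lower in B/T BAL, where 17.7% of all genes were, and 0 on either other leukemia array. Ifih1 (MDA5), which detects long double-stranded RNA, had 2841 on the mixed lineage array, 2501 in normal marrow, 1693 in proB ALL and 329 on the B/T BAL array. It was 7.61-fold lower in B/T BAL than in normal marrow. Dhx58 (LGP2), its partner, had 985 on the mixed lineage array, 853 in normal marrow, 690 in proB ALL and 253 on the B/T BAL array. Ddx58 (RIG-I), the sensor of uncapped RNA ends, had 2288 in normal marrow, 1380 in proB ALL, 1343 on the mixed lineage array and 788 in B/T BAL. The call of Ddx58 rests on its brightest probe set, since both others gave log2 differences of -0.52 and -0.81 in B/T BAL, and 1 of them gave 1.10 in proB ALL. Zbp1, a sensor of left-handed nucleic acid that can start cell death, had 1357 in proB ALL and 1150 on the mixed lineage array against 588 in normal marrow and 477 in B/T BAL. Its dimmer probe set had 428 in proB ALL, a log2 difference of 0.80 in place of 1.14. On the mixed lineage array it had 128 against 224 in normal marrow, so the direction of Zbp1 there depends on the probe set.

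Parp14, Dtx3l and Parp9 lie side by side in the RefSeq gene order, and Parp9 and Dtx3l form a complex of an ADP-ribosyltransferase and a ubiquitin ligase. All 3 had proB ALL as their highest array. Parp9 had 5040 in proB ALL, 2868 in normal marrow, 1724 on the mixed lineage array and 1675 in B/T BAL. Dtx3l had 4728 in proB ALL, 2926 in normal marrow, 2864 in B/T BAL and 2288 on the mixed lineage array. Parp14 had 1953 in proB ALL, 1378 in normal marrow, 774 on the mixed lineage array and 739 in B/T BAL. Each was within 2-fold of normal marrow on every leukemia array by these probe sets. The other probe set of Dtx3l gave log2 differences of -1.52 for B/T BAL, -1.19 on the mixed lineage array and 0.87 for proB ALL. That of Parp14 gave 1.12 for proB ALL, -1.20 on the mixed lineage array and -0.22 for B/T BAL. Some 2-fold calls of Dtx3l and Parp14 thus depend on the probe set. Trim30a, a ubiquitin ligase that restrains inflammatory signalling, had 3507 in proB ALL, 3195 in normal marrow and 1937 on the mixed lineage array. It had 295 in B/T BAL, 10.8-fold below normal marrow, and 544 against 2535 by its other probe set.

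The remaining members fell into different orders. Ifi35, a protein released as a danger signal, had 15827 in proB ALL, 12901 in normal marrow, 7456 on the mixed lineage array and 5038 in B/T BAL. Xaf1, which promotes cell death, had 2564 in normal marrow, 2420 in proB ALL, 990 on the mixed lineage array and 915 in B/T BAL. Ifi27 had 8147 on the mixed lineage array, 6204 in normal marrow, 5846 in proB ALL and 2011 on the B/T BAL array. Lgals3bp, a secreted glycoprotein that binds galectins, was alone in being low only on the mixed lineage array by the 2-fold rule. It had 374 there, against 2340 in normal marrow, 3385 in proB ALL and 3216 on the B/T BAL array.

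**Figure D2:**
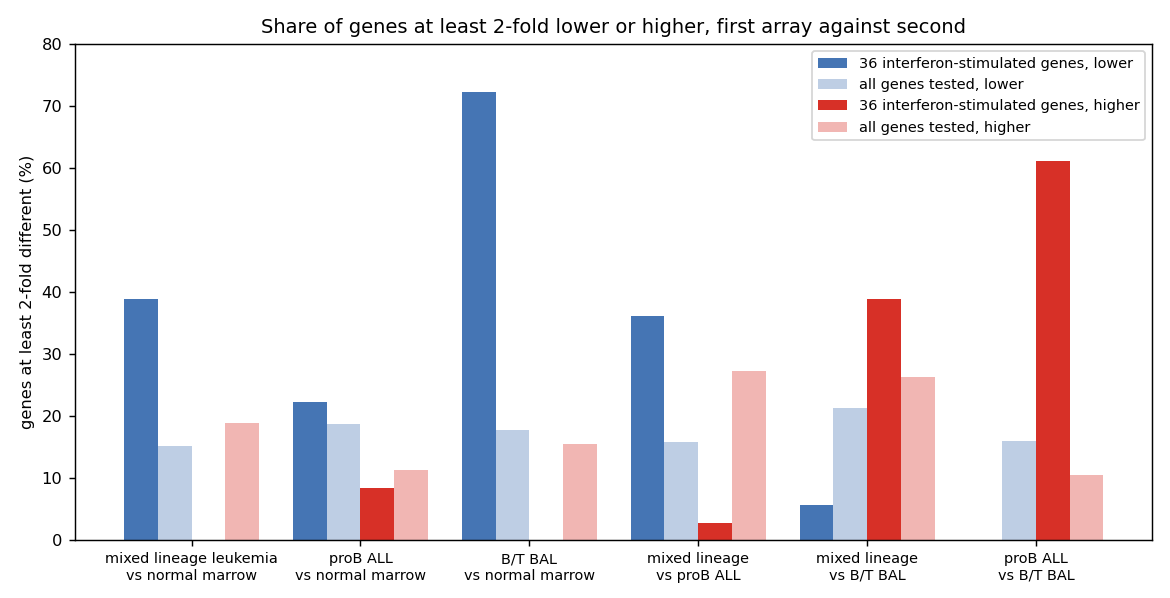
Bars give the percentage of genes at least 2-fold lower (blue) or higher (red) on the first array than on the second, for the 36 interferon-stimulated genes tested (dark) and all 14012 genes tested (pale). B/T BAL against normal marrow has 72.2% of members lower against 17.7% of all genes, and proB ALL against B/T BAL has 61.1% of members higher against 10.5%.

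The leukemias were next set against each other. In proB ALL the signal was above that in B/T BAL for 33 of 36 members, against 41.3% of all genes tested, and the exceptions were Isg20, Eif2ak2 and Stat2. At least 2-fold, 22 members were higher in proB ALL than in B/T BAL and 0 were lower, against 10.5% and 15.9% of all genes. The median log2 difference between these arrays was 1.32 for members and -0.17 for all genes. Trim30a, Samd9l and Rtp4 had the largest differences, at 3.36, 3.01 and 2.88 on the log2 scale. Both leukemias arose from cells with AF4-MLL alone. With 1 array each, a difference between them has no replicate check.

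**Figure D3:**
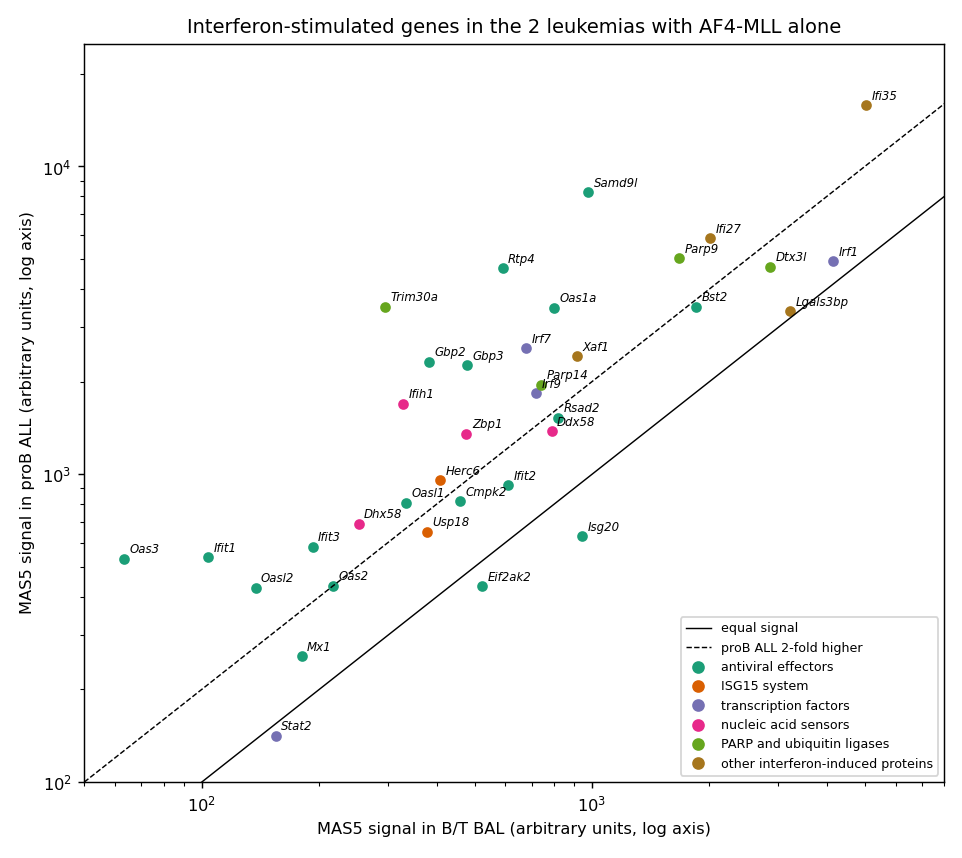
Each point is 1 of the 36 interferon-stimulated genes tested, with its MAS5 signal in B/T BAL on the x axis and in proB ALL on the y axis, both log axes, coloured by role. The solid line marks equal signals and the dashed line a 2-fold higher signal in proB ALL, without the added 51.4. Of the 36 points, 33 lie above the solid line.

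Mixed lineage leukemia lay between the other leukemias for 19 members, in the order proB ALL above mixed lineage above B/T BAL, against 9.31% of all genes. Against proB ALL, 13 members were at least 2-fold lower on the mixed lineage array and 1, Cmpk2, was higher, where 15.7% and 27.3% of all genes were. Against B/T BAL, 14 members were at least 2-fold higher and 2, Isg20 and Lgals3bp, were lower, where 26.3% and 21.2% of all genes were. Over all 4 arrays the highest signal lay in normal marrow for 16 members, in proB ALL for 13, on the mixed lineage array for 7 and in B/T BAL for 0. The shares over all genes were 19.2%, 18%, 34.7% and 28.1%. The lowest signal lay in B/T BAL for 27 members, on the mixed lineage array for 7, in proB ALL for 2 and in normal marrow for 0, against 23.1%, 27.9%, 29.9% and 19.1% of all genes. Among the leukemias alone, proB ALL was highest for 25 members, the mixed lineage array for 10 and B/T BAL for 1, against 22.2%, 42.8% and 34.9% of all genes. B/T BAL was the lowest leukemia for 27 members, the mixed lineage array for 7 and proB ALL for 2, against 28.4%, 34.9% and 36.7%. The summed signal of the 9 measured T-cell genes was 187159 in B/T BAL and 51520 in proB ALL. Natural killer and cytotoxic genes had the opposite order, with 53497 and 202493. Of the sum in B/T BAL, Gzma alone made up 52157, and 6 of the 9 genes were at or below the floor there. At least 2-fold, 8 of 9 were higher in proB ALL than in B/T BAL, against 10.5% of all genes. The part of these cells in the members' order was not tested.

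Plasmacytoid dendritic cells, a main source of type I interferon, were followed by 8 measured marker genes. Their summed signal was 12709 in normal marrow and 9381, 14816 and 7548 on the mixed lineage, proB ALL and B/T BAL arrays. Siglech, their surface lectin, was chosen after its values were seen and had 1048 in normal marrow, 774 in proB ALL, 561 on the mixed lineage array and 148 in B/T BAL, below the floor. In B/T BAL 6 of the 8 markers were at least 2-fold lower than in normal marrow and 1, Ccr9, was higher. The shares over all genes were 17.7% and 15.4%. The markers differed in order, with Ccr9 and Klk1 highest in B/T BAL and Lair1 highest on the mixed lineage array. Monocyte genes summed to 39540 in normal marrow and to 89694, 20409 and 15179 on the mixed lineage, proB ALL and B/T BAL arrays, and late neutrophil genes to 423652 against 729061, 140024 and 457547. Both sums were highest on the mixed lineage array. The part of these cells in the members' levels was not tested.

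The interferon pathway around the members was read from 115 further genes, of which 99 were measured and 91 tested. At least 2-fold lower than in normal marrow were 10 of 91 on the mixed lineage array, 19 in proB ALL and 33 on the B/T BAL array, and 10, 20 and 8 were higher. The shares over all genes were 15.2%, 18.7% and 17.7% lower and 18.8%, 11.3% and 15.4% higher. The medians of the 91 were -0.04, 0.19 and -0.45, so on the mixed lineage array and proB ALL they had no common direction. In limma 0 of the 91 passed the adjusted threshold, and 0 had an unadjusted p under 0.05.

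Of 7 measured interferon genes, 4 exceeded the floor on some array. Ifng, made by killer and T cells, had 575 in proB ALL and 6.48 to 49.1 on the other arrays, below the floor, and was at least 3.05-fold higher in proB ALL than in normal marrow. Ifna1 had 288 in normal marrow and at most 56.6 in a leukemia. Ifnb1 and Ifna5 reached 235 and 193 on the mixed lineage array and were below the floor elsewhere. The signals of Ifna1, Ifna5 and Ifnb1 lie too near the floor of 189 to rank the arrays.

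Among 10 receptor, kinase and STAT genes, 3 were at least 2-fold higher in proB ALL and 2 lower, while B/T BAL had 0 higher and 3 lower. Over all genes, 11.3% were higher and 18.7% lower in proB ALL, and 15.4% and 17.7% in B/T BAL. Ifngr1 had 15222 in proB ALL, 6097 on the mixed lineage array, 4083 in the B/T BAL sample and 3632 in normal marrow. Its partner Ifngr2 went the other way, with 375 in proB ALL against 1527 on the mixed lineage array, 763 in the B/T BAL sample and 923 in normal marrow. Ifnar2 had 2028 in B/T BAL, against 5265 in normal marrow, 6434 on the mixed lineage array and 7996 in proB ALL. Ifnar1 had 638, 1901, 1011 and 1070 on the mixed lineage, proB ALL, B/T BAL and control marrow arrays. By the brightest of 2 probe sets of Ifnar1 and of 3 of Ifnar2, both type I receptor chains were thus highest in proB ALL. By the same probe sets, the B/T BAL array was low for Ifnar2 alone. Jak1 had 17895 in proB ALL against 7510 in normal marrow, 4887 in B/T BAL and 4127 on the mixed lineage array. Tyk2 had 1804 in normal marrow and 1051 to 1296 in the leukemias, and Stat3 had 3519 in normal marrow and 4044 to 6552. Ifnlr1, the receptor of type III interferon, was below the floor in proB ALL and B/T BAL, with 1364 on the mixed lineage array and 1075 in normal marrow.

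Upstream sensing genes were mixed. Of 16 tested, 1, 2 and 6 were at least 2-fold lower on the mixed lineage, proB ALL and B/T BAL arrays, and 3, 3 and 2 were higher. Over all genes, 15.2%, 18.7% and 17.7% were lower and 18.8%, 11.3% and 15.4% higher. Mavs, the adaptor of Ifih1 and Ddx58, had 2491 in normal marrow, 1738 in proB ALL, 1121 on the B/T BAL array and 355 for the mixed lineage array. Unc93b1, which carries nucleic acid receptors to endosomes, had 4812 in normal marrow, 4368 on the mixed lineage array, 2021 in proB ALL and 1060 on the B/T BAL array. Irf8, a myeloid and dendritic cell factor, had 1789 in B/T BAL against 5789 to 8222 on the other arrays. Irf3, which starts interferon transcription, was highest in B/T BAL, at 5276, against 3999 in normal marrow, 3478 in proB ALL and 2109 on the mixed lineage array. Traf6, a ubiquitin ligase of Toll-like receptor signalling, was the 1 gene of the list at least 2-fold higher in all 3 leukemias, with 531 in normal marrow and 1292 to 1613 in them. Of all genes tested, 1.31% were higher in all 3.

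Of 10 negative regulators, 0, 2 and 1 were lower than in normal marrow by at least 2-fold on the mixed lineage, proB ALL and B/T BAL arrays, and 0, 3 and 2 were higher. Their median log2 differences were 0.23, 0.56 and 0.46. The counts can be read against the shares over all genes given for the 91 pathway genes. Socs3, which blocks cytokine receptors, had 472 in normal marrow, 787 on the mixed lineage array, 2809 in proB ALL and 2089 on the B/T BAL array. Socs1, which inhibits Jak kinases, had 134 in normal marrow, under the floor, and 228 on the mixed lineage array, 601 in proB ALL and 283 on the B/T BAL array. Nlrc3, a restraint on nucleic acid sensing that lymphocytes express, had 196 in normal marrow, 342 on the mixed lineage array, 4699 in proB ALL and 5093 on the B/T BAL array. Pias4, which adds SUMO to signalling proteins, had 2539 in normal marrow and 1166 to 1369 in the leukemias.

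Genes known as targets of interferon gamma were, like the members, mostly higher in proB ALL than in B/T BAL. At least 2-fold, 9 of 12 were higher and 0 lower, against 10.5% and 15.9% of all genes. Against normal marrow, 4 were higher and 0 lower in proB ALL, 0 higher and 3 lower on the mixed lineage array, and 1 higher and 7 lower in B/T BAL. Over all genes, 11.3% were higher and 18.7% lower in proB ALL. Those shares were 18.8% and 15.2% on the mixed lineage array, and 15.4% and 17.7% in B/T BAL. Psmb8, a subunit of the immunoproteasome, had 7259 in normal marrow and 11332, 23598 and 19267 on the mixed lineage, proB ALL and B/T BAL arrays. Irgm1, a GTPase of the defence against intracellular bacteria, had 2603 in normal marrow, 1853 in proB ALL, 1022 on the B/T BAL array and 520 for the mixed lineage array. Its relatives Iigp1 and Irgm2 peaked in proB ALL, at 1054 and 1331, against 684 and 1117 in normal marrow. In B/T BAL they had 177 and 254. Nlrc5, the activator of MHC class I genes, was chosen after its values were seen. It had 9742 in proB ALL, 1352 in normal marrow, 557 on the mixed lineage array and 307 in B/T BAL.

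Further interferon-induced genes outside the list of members were followed as well. Of 39 tested, 12 were at least 2-fold higher in proB ALL than in B/T BAL and 4 were lower. The shares over all genes were 10.5% and 15.9%. The median log2 difference of the 39 was 0.46, against 1.32 for the members. Compared with normal marrow, 5, 12 and 15 were lower on the mixed lineage, proB ALL and B/T BAL arrays, and 7, 6 and 3 were higher. Over all genes, 15.2%, 18.7% and 17.7% were lower and 18.8%, 11.3% and 15.4% higher. Uba7, the enzyme that activates Isg15, had 2988 in normal marrow and 824, 776 and 1345 on the mixed lineage, proB ALL and B/T BAL arrays. It and Pml, a nuclear body protein chosen after its values were seen, were the 2 of these 39 genes at least 2-fold lower in all 3 leukemias. Of all genes tested, 4.45% were lower in all 3. Slfn4, a myeloid gene, had 15087 in normal marrow, 16187 on the mixed lineage array, 7052 in B/T BAL and 706 in proB ALL. Oas1b, the flavivirus resistance gene, had 739 in normal marrow, 348 in B/T BAL, 276 in proB ALL and 53.6 on the mixed lineage array. Tdrd7 had 1571 in normal marrow, 1255 on the mixed lineage array, 335 in proB ALL and 210 on the B/T BAL array. Slfn4, Oas1b and Tdrd7 thus each ranked the leukemias differently from most members.

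**Figure D4:**
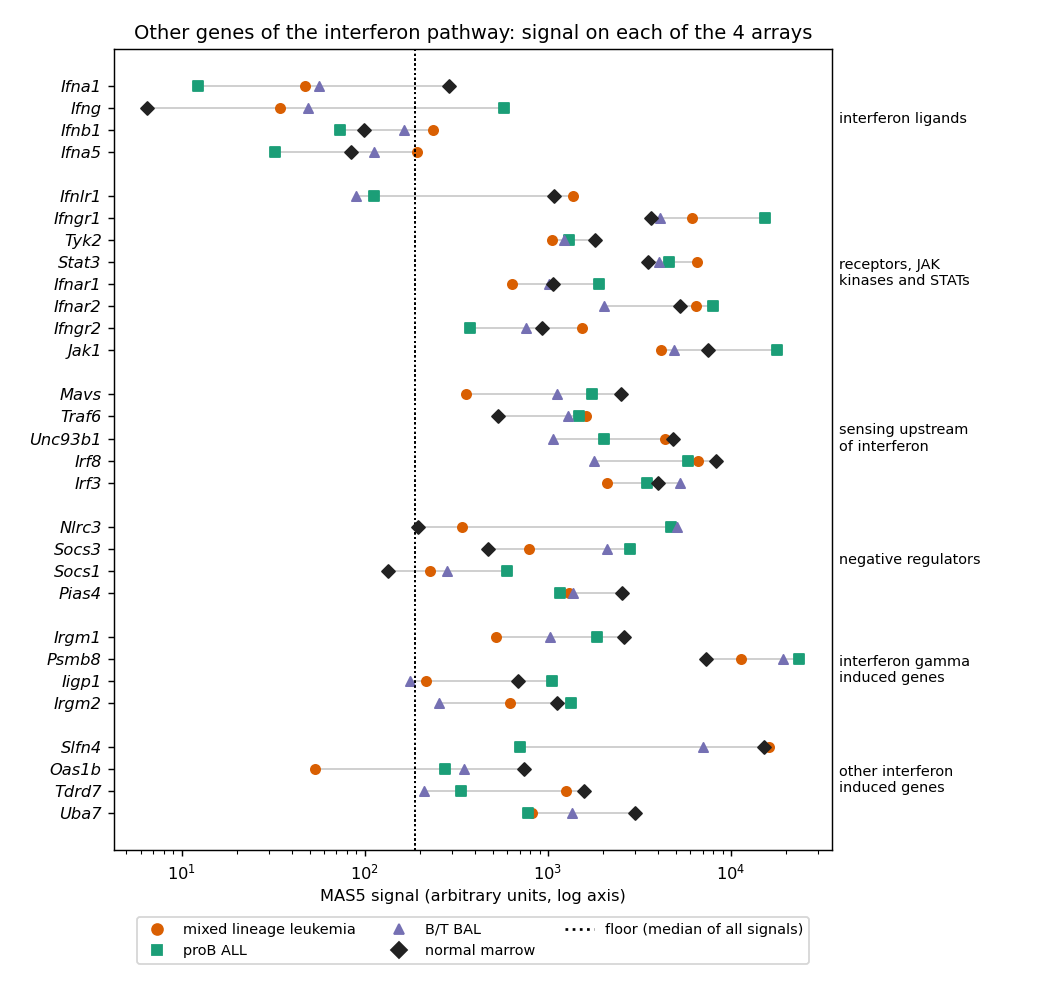
MAS5 signal (log axis) on the 4 arrays for the named genes of the interferon pathway that are no members, 1 row a gene, with the same markers for the arrays as for the members. Ifng, Ifngr1 and Jak1 are highest in proB ALL, and the ligands lie near or below the floor on most arrays.

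Probe sets of the same member did not always give the same call. Of 16 members with several probe sets, 15 had more than 1 above the floor. Over their 45 comparisons with normal marrow, the probe sets of a gene gave different 2-fold calls in 18 and opposite 2-fold calls in 0. Ddx58 in proB ALL ranged from -0.71 to 1.10 on the log2 scale, and Xaf1 in B/T BAL from -1.44 to 0.74. For genes that are no members, the values rest on the brightest probe set, and their other probe sets were not compared.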

How the data were processed

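RNA from 3 leukemias and 1 normal marrow was measured on 1 array each. The deposited values are intensity values on a linear scale, made by the authors with MAS5, per the submitters' processing notes, which state neither version nor settings in the sources used here. A mean of 1000 after trimming 2% of probe sets at each end was the same on all 4 arrays, so a global scale was shared. The number of arrays limits the precision. Of 45101 probe sets, 64 controls were left out, and 34945 carried 1 gene symbol, 932 several and 9160 none. The brightest probe set of a gene, by mean log2(signal + 51.4), stood for it. Genes of probe sets come from GEO's platform annotation, and promoters from RefSeq (GRCm38.p6). Genes above the floor on at least 1 array were fitted in limma 3.58.1 (R 4.3.3; eBayes with intensity trend, 2 residual degrees of freedom, Benjamini-Hochberg adjustment over 14012 genes). Folds use signals without the added value, and a fold with 1 side at or below the floor counts it at the floor. The code was tested on simulated data. Members and lists were chosen with earlier results of these data known. Every member is named. Other genes named come from up to 4 of each pathway list and 2 of each cell list (not all are printed) by the largest absolute mean log2 difference among genes above the floor on at least 1 array, with the Ifnar and Ifngr receptors, Jak1, Tyk2 and Irf3. Other genes, among them Ebf1, Pax5, Gzmb, Cd4 and Ptcra, were chosen after their values were seen. Other settings tried were the pseudocount, the filter, scaling, probe set choice, eBayes options and leaving out each leukemia, with the lone normal array assumed to vary like the leukemias in every fit.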

Additional observations from a re-analysis of the deposited data

Results flagged for a closer look

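Gbp2 lay in opposite directions at least 2-fold from normal marrow, with log2 differences of 1.0 in proB ALL, -1.44 on the mixed lineage array and -1.45 in B/T BAL. The difference between the leukemias was not tested, since each has 1 array, and the proB ALL value lies at the 2-fold line.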

How the results depend on the processing

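No paired analysis was possible because each group holds 1 array. Members at least 2-fold lower numbered 13 to 15 on the mixed lineage array, 8 to 9 in proB ALL and 22 to 27 in B/T BAL over the settings tried, and proB ALL against B/T BAL kept counts of 22 higher and 0 lower under each scaling and with signals raised to the floor. Members at least 2-fold higher in proB ALL numbered 1 with a pseudocount at the 50th percentile and 1 under quantile normalization. On the mixed lineage array that count was 1 with quantile normalization and 1 when arrays shared a 75th percentile. Against proB ALL, 2 and 3 members were higher on the mixed lineage array under those scalings, and against B/T BAL 1 was lower under scaling to the 75th percentile. A limma fit without 1 leukemia takes its spread from the remaining leukemias of different immunophenotype alone, so its p-values are less certain. Leaving out 1 leukemia gave 8 to 13 members lower in all remaining leukemias. It gave 0 to 2 members passing the adjusted threshold in limma, Rsad2 and Isg20 without proB ALL or without B/T BAL, and 0 to 113 of all genes, with 71 without proB ALL. Robust eBayes passed 2 members of 23 genes in all, and a pseudocount at the 50th percentile passed 15 genes, 0 of them members. The median of all genes on the mixed lineage array moved from 0.08 to 0.23 under scaling to the 75th percentile. With CT required after the core, the promoter motif was found in 8 members in place of 14. The mean log2 difference of some members changed sign, among them Rtp4 (-0.94 as reported), Samd9l (-0.89), Lgals3bp (-0.51) and Ifi27 (-0.43). That of Gbp3 was 0.023 with the higher pseudocount, 0.056 after quantile normalization and 0.0015 with a shared 75th percentile. That of Eif2ak2 was -0.026 after quantile normalization. With the mean over probe sets, Eif2ak2 had -0.15, Rtp4 0.26 and Dtx3l -0.25. Leaving out each leukemia in turn gave ranges of -0.083 to 0.16 for Eif2ak2, -0.050 to 0.74 for Bst2, -1.45 to 0.059 for Samd9l, -0.50 to 0.56 for Gbp3, -0.74 to 0.042 for Parp9, -0.19 to 0.33 for Dtx3l, -1.02 to 0.49 for Lgals3bp and -0.84 to 0.15 for Ifi27. The cause was not tested. With 1 array a group, no difference between single arrays has an error.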
